A study of Mus musculus with 4 samples.

Results

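The genes described here are 42 listed genes of motile cilia, found by their symbols among the 40092 rows of the count table. Of these, 40 were found under their own symbol, and Dnai1 and Dnai2 were found under the older symbols Dnaic1 and Dnaic2. The libraries were made from alveolar type II (AT2) cells, which make surfactant and renew the alveolar epithelium, sorted by GFP 14 days after bleomycin injury of the lung. Ctrl mice (2 libraries) carried Alkbh5flox/+ and A5-CKO mice (2 libraries) carried Alkbh5flox/flox, and all of them carried Sftpc-CreERT2 and Rosa26-mTmG and received tamoxifen. The Cre is driven by the promoter of Sftpc, so that recombined, green cells are those with Sftpc activity at the time of tamoxifen, and Ctrl cells had themselves 1 floxed allele. The labels do not say whether a library holds 1 mouse or several, and p-values measure only the spread between these libraries.

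Motile cilia are hair-like organelles that beat and move fluid, and in the lung they stand on the multiciliated cells of the airways. Their axoneme is a ring of doublet microtubules around a central pair, bent by dynein arms and kept in register by radial spokes and nexin links. Multicilin (Mcidas) and cyclin O (Ccno) start the multiplication of basal bodies, and Foxj1 with the RFX factors switches on the axonemal genes. AT2 cells do not carry motile cilia, and the question is therefore at what level these genes are read in sorted cells and whether that level differs between the genotypes.

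RFX factors bind the X-box, and a core of 6 letters from its arm was looked for in the promoters because Rfx2 and Rfx3 are members of the list. RefSeq promoters (GRCm38.p6, the build of the counts) were available for 35 of the 42 genes. The X-box core GTTGCC, on either strand and within 250 bases before the start, was present in 15 of 40 member promoters (37.5%), which belong to 14 genes, and in 3425 of all 32851 promoters (10.4%). A forkhead core, TGTTTAC or TGTTTGT on either strand, was present in 3 of 40 member promoters (7.5%) and in 8.74% of all promoters. These letter matches are descriptions and were not tested for binding. The promoters of the 3 genes with the highest counts among those with the core are shown for this shared feature, with the core in capitals as it reads on either strand. Rfx2 has it 116 bases before the start (chr17:56831009-56831258, minus strand), Dynlrb2 has it 51 bases before the start (chr8:116504765-116505014, plus strand), and Ccno has it 219 bases before the start (chr13:112987552-112987801, plus strand).
Rfx2: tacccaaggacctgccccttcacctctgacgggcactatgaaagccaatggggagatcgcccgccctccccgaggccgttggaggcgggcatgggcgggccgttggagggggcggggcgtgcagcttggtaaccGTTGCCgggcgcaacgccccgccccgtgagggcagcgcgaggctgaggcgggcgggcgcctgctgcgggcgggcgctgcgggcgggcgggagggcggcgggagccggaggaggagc
Dynlrb2: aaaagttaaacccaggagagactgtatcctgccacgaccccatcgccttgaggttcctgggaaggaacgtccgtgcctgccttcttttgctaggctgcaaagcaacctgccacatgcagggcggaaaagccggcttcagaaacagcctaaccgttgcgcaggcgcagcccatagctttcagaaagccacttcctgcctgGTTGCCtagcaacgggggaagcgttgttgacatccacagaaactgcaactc
Ccno: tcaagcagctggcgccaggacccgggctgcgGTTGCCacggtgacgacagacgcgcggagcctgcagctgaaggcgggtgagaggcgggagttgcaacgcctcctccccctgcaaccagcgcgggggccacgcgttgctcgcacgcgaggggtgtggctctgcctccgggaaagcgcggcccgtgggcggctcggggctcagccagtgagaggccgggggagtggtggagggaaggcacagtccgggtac
The other genes with the core were Ccdc153, Dnah7b, Ccdc113, Drc1, Tekt1, Hydin, Dnai2, Tekt2, Cfap44, Spag16 and Mcidas.

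The libraries held 18144865 to 20811757 counts. Alkbh5, the deleted gene, stood at 81.7 and 152 CPM (normalized counts, scaled by TMM) in Ctrl against 19.3 and 36.6 CPM in A5-CKO, lower in both libraries of the deletion. The defining AT2 genes were present in every library. Sftpc, the defining surfactant gene, had 15480 and 16370 CPM in Ctrl against 10270 and 7856 CPM in A5-CKO, and the 12 AT2 markers summed to 70200 and 98400 CPM in Ctrl and to 51700 and 43100 CPM in A5-CKO. The 12 club cell markers, which mark secretory cells of the airway, were not at 0 either. They summed to 7820 and 9620 CPM in Ctrl and to 4340 and 2860 CPM in A5-CKO, mostly from Cbr2 and Scgb1a1, and how far AT2 cells make these RNAs themselves was not tested.

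The motile cilia genes were read at a low level in every library. Together the 42 genes had 252 and 274 CPM in Ctrl against 255 and 135 CPM in A5-CKO, and Tppp3 alone made up 40.1% of the sum. Under 100 counts in every library were found for 31 of the 42 genes, while 27 genes had at least 10 counts in every library. No gene was at 0 in all 4 libraries. Dnah12, an inner arm heavy chain, came closest, with 4 counts in A5-CKO 1 and 0 counts in the other libraries.

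Per kilobase of exon, the mean level over the libraries ran from 49.7 CPM per kb for Tppp3 to 0.00377 CPM per kb for Dnah12. Tppp3 encodes a tubulin-binding protein that is not restricted to cilia. It was followed by Dynlrb2, a dynein light chain, with 27.4 CPM per kb, by the spoke head gene Rsph9 with 8.61, by Foxj1 with 5.08 and by Cfap126 with 4.03. Ccno (2.26), Rfx2 (2.23) and Rsph1 (2.03) came next, and their ranges over the 4 libraries overlapped with each other. The 8 dynein heavy chains were all among the lower ranks, at 0.207 CPM per kb (Dnah11) or less. Of these heavy chains, Dnah12 alone was at or near the floor of 3 counts in every library.

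**Figure D1:**
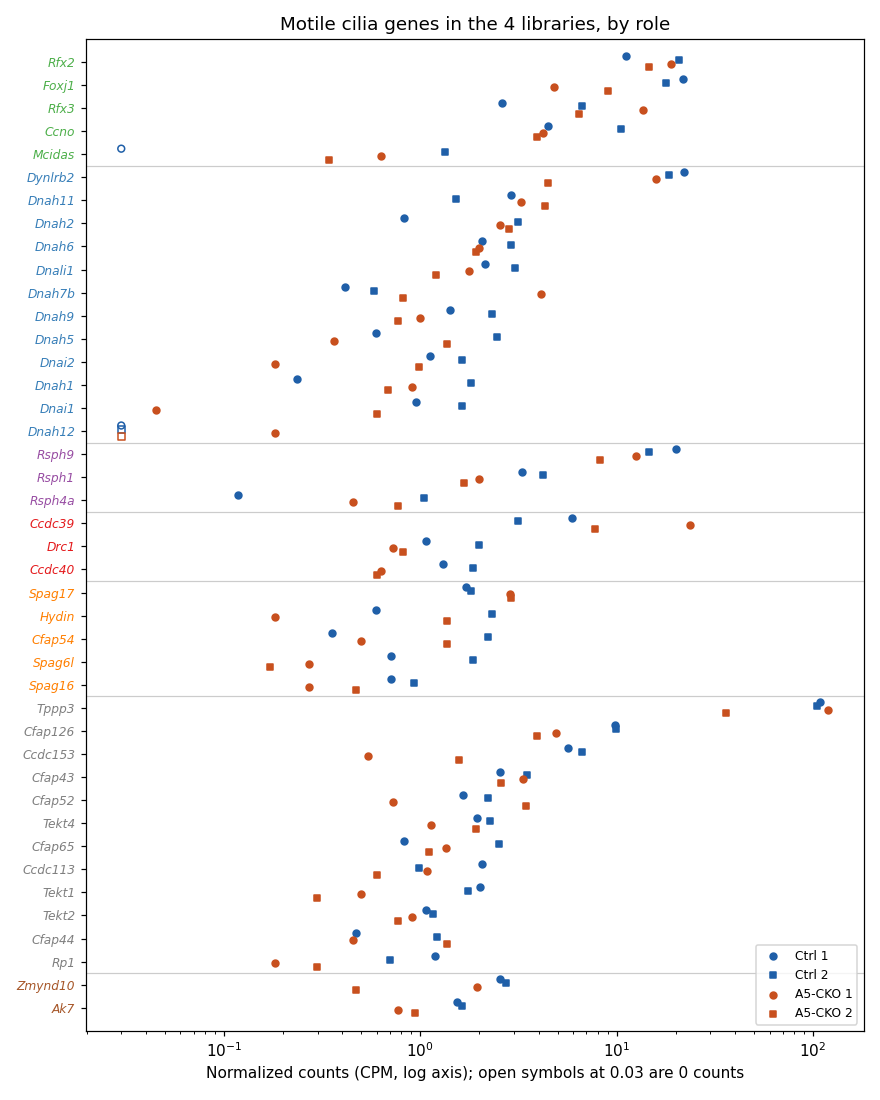
Normalized counts (CPM, log axis) of the 42 motile cilia genes in the 4 libraries, ordered by role and coloured by role on the gene names. Blue marks are Ctrl, orange marks are A5-CKO, and open marks are libraries with 0 counts. Tppp3 stands alone above 35 CPM in every library, and most other genes lie between 0.1 and 10 CPM.

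Between the genotypes, more of the motile cilia genes were lower than higher in A5-CKO, and no single gene passed the adjusted threshold. Of the 42 genes, 22 had both A5-CKO libraries below both Ctrl libraries, 4 had both above, and 16 overlapped. The same pattern was found for 23.5% (lower) and 20.3% (higher) of all 16661 genes tested. With total counts only, in place of TMM scaling, 15 genes were lower and 6 higher, beside 10.1% and 34.8% of all genes. That scaling moved the median of all genes to 0.30 and that of the motile cilia genes to -0.45 on the log2 scale. The 7 genes that were lower with TMM and overlapped with total counts only were Dynlrb2, Dnai2, Dnah6, Rsph9, Ccno, Tekt2 and Tekt4, and the 2 that became higher were Rfx3 and Dnah2. Enough counts for the test were present for 41 of the 42 genes, all but Dnah12, and their median log2 fold change was -0.80 beside -0.02 for all genes tested. Of these, 31 had a negative and 10 a positive fold change. In the quasi-likelihood test of edgeR, adjusted after Benjamini-Hochberg, 0 of the 41 passed 0.05, beside 0.0% of all genes, and the smallest adjusted p was 0.528. DESeq2 called 0 of the 35 motile cilia genes to which its default filtering gave an adjusted p, beside 59 genes of the whole table, and 0 of 41 on the genes tested in edgeR, beside 55. Without adjustment, 7 genes had p under 0.05. Ccdc153, Foxj1, Tekt1, Spag6l and Cfap126 were lower, beside 4.71% of all genes, and Dnah7b and Ccdc39 were higher, beside 4.48% of all genes. In bulk RNA, fewer cells that make these transcripts and less RNA per cell cannot be told apart.

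**Figure D2:**
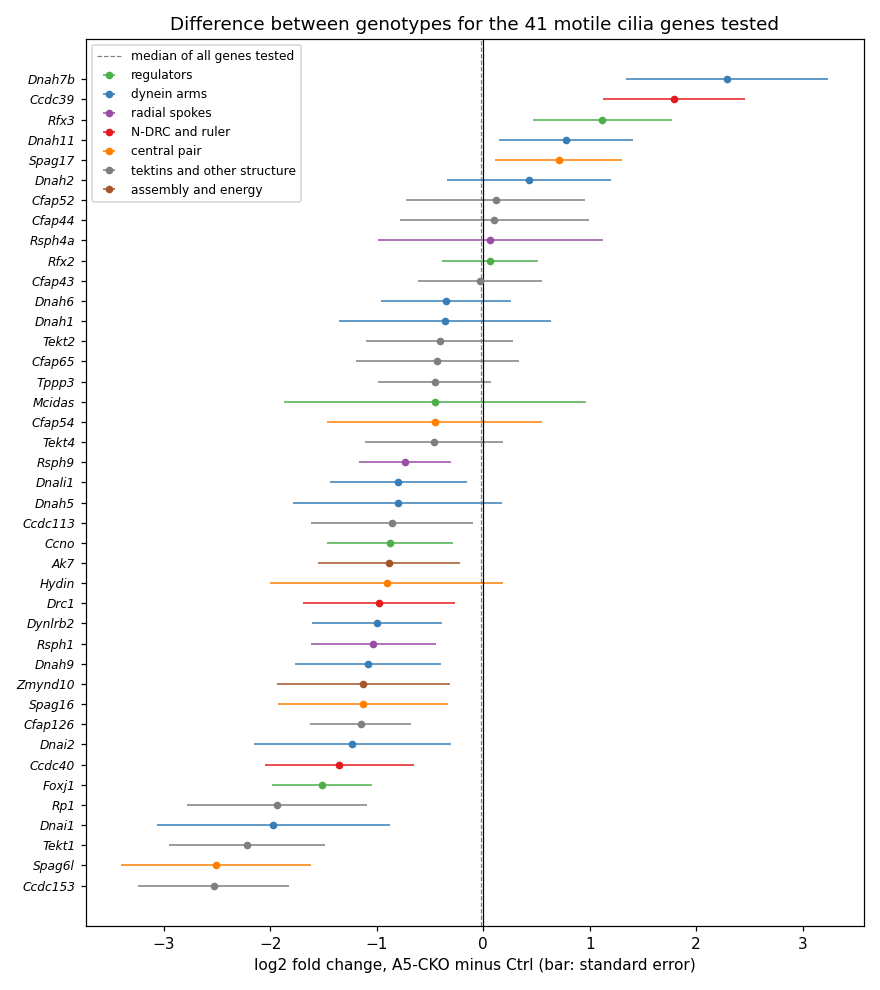
Log2 ratio of A5-CKO to Ctrl (horizontal axis) of the 41 motile cilia genes with enough counts, each with its standard error and coloured by role. Most lie to the left of 0, from -2.53 for Ccdc153 upwards, and Dnah7b and Ccdc39 are at the right end with 2.29 and 1.79.

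Among the regulators, Foxj1 had the smallest p. Foxj1 (chromosome 11, 116330704 to 116335499, GRCm38.p6), the factor required for motile ciliogenesis, had 366 and 307 counts in Ctrl and 106 and 211 in A5-CKO. In normalized counts this was 21.6 and 17.9 CPM against 4.80 and 9.02 CPM, with means of 19.8 ± 2.67 (SD, n = 2) for Ctrl against 6.91 ± 2.98 (SD, n = 2) for A5-CKO. This is a log2 ratio of -1.51 (standard error 0.47, unadjusted p = 0.0150 and adjusted p = 0.528 in edgeR), and it lay between -2.04 and -1.13 when 1 library was dropped. Both A5-CKO libraries were below both Ctrl libraries.

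Of the other regulators, Ccno had groups that did not overlap, and Rfx2, Rfx3 and Mcidas overlapped. Rfx2 had 11.1 and 20.8 CPM in Ctrl and 18.9 and 14.5 CPM in A5-CKO, with a log2 fold change of 0.07 (standard error 0.45). Rfx3, a second X-box factor, had 2.60 and 6.63 CPM in Ctrl and 13.6 and 6.45 CPM in A5-CKO, with a log2 fold change of 1.12 (standard error 0.65). The high value was that of A5-CKO 1, and the fold change of Rfx3 was 0.48 without it and 0.37 after correcting for GC and transcript length. Ccno had 4.49 and 10.5 CPM in Ctrl and 4.21 and 3.93 CPM in A5-CKO, for a log2 ratio of -0.88 (standard error 0.59). Its Ctrl 1 value lay close to the A5-CKO libraries. Mcidas had 0 and 23 counts in Ctrl and 14 and 8 counts in A5-CKO, too uneven in Ctrl to give a direction (log2 fold change -0.46, standard error 1.42).

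The dynein arms are the motors of the cilium. With TMM scaling their 4 intermediate and light chain genes were each lower in both A5-CKO libraries, but with total counts only Dynlrb2 and Dnai2 overlapped between the genotypes. Among all genes tested 23.5% were lower with TMM scaling and 10.1% with total counts only. With TMM scaling 35.6% of the genes tested with under 3 kb of exons were lower. Dynlrb2 had 22.1 and 18.5 CPM in Ctrl and 15.8 and 4.49 CPM in A5-CKO, with A5-CKO 2 far below the rest and a log2 ratio of -0.998 (standard error 0.61). Dnai1, an intermediate chain of the outer arm, had 16 and 28 counts in Ctrl against 1 and 14 in A5-CKO, and Dnai2, its partner, had 19 and 28 counts in Ctrl and 4 and 23 in A5-CKO. Dnali1, a light chain of the inner arm, had 36 and 52 counts in Ctrl against 39 and 28 in A5-CKO, which is lower in A5-CKO only after scaling to library size.

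The 8 heavy chains varied without a common direction. With TMM scaling, 2 were lower in both A5-CKO libraries (Dnah6 and Dnah9) and 2 were higher (Dnah7b and Dnah11). The other 4 overlapped (Dnah1, Dnah2, Dnah5 and Dnah12). These numbers were close to the shares among all genes tested, 23.5% lower and 20.3% higher. Dnah6 overlapped and Dnah2 was higher with total counts only. Summed, the 8 heavy chains had 8.46 and 14.7 CPM in Ctrl and 14.4 and 12.7 CPM in A5-CKO. Dnah9, a heavy chain of the outer arm, had 24 and 40 counts in Ctrl and 22 and 18 in A5-CKO. Dnah5, also a heavy chain of the outer arm, had 10 and 42 counts in Ctrl against 8 and 32 in A5-CKO, and its libraries differed more within a genotype than between genotypes. Dnah11, another heavy chain of the outer arm, had 2.90 and 1.51 CPM in Ctrl and 3.26 and 4.32 CPM in A5-CKO, a log2 ratio of 0.78 (standard error 0.63).

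Dnah7b, an inner arm heavy chain, had 7 and 10 counts in Ctrl and 91 and 19 counts in A5-CKO. Its log2 fold change was 2.29 (standard error 0.95, unadjusted p = 0.0468 in edgeR), and it was 0.70 without A5-CKO 1, so that this library carries most of the difference. Dnah7b is one of a set of near-identical neighbouring genes, and reads could be split between them. The copies Dnah7a (4, 6, 5 and 10 counts) and Dnah7c (14, 12, 7 and 14 counts) were not high in A5-CKO 1, and the assignment of reads between them is uncertain.

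The radial spoke genes, which encode the spoke heads that face the central pair, included some of the better measured members. Rsph9 had 19.9 and 14.5 CPM in Ctrl against 12.5 and 8.21 CPM in A5-CKO, and Rsph1 had 3.31 and 4.19 CPM in Ctrl and 1.99 and 1.67 CPM in A5-CKO. Both were lower in both A5-CKO libraries, with log2 ratios of -0.74 (standard error 0.43) and -1.03 (standard error 0.59). Rsph4a had 2 and 18 counts in Ctrl against 10 and 18 in A5-CKO, and showed no separation.

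Ccdc39 and Ccdc40 form the molecular ruler that sets the axonemal repeat, and their counts differed in direction. Ccdc40 had 1.30 and 1.86 CPM in Ctrl and 0.634 and 0.598 CPM in A5-CKO, lower in both A5-CKO libraries. Ccdc39 had 100 and 54 counts in Ctrl and 522 and 182 in A5-CKO, or 5.91 and 3.14 CPM against 23.6 and 7.78 CPM. Its log2 fold change was 1.79 (standard error 0.66, unadjusted p = 0.0310 in edgeR) and was 0.78 without A5-CKO 1. The exons of Ccdc39 share 1256 bases, 16.9% of their length, with Ttc14 on the opposite strand. Ttc14 had 436 and 241 counts in Ctrl and 2129 and 850 in A5-CKO, the same order of the 4 libraries as Ccdc39, with a log2 fold change of 1.74 (standard error 0.54). As no strand setting is given for the counts, reads of the shared exons cannot be assigned, and the part of Ttc14 in the Ccdc39 counts was not tested. Drc1, of the nexin-dynein regulatory complex, had 18 and 34 counts in Ctrl and 16 and 19 in A5-CKO, lower in both A5-CKO libraries after scaling.

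The central pair genes were all below 3 CPM in every library. Spag6l had 12 and 32 counts in Ctrl and 6 and 4 in A5-CKO, with a log2 fold change of -2.51 (standard error 0.89, unadjusted p = 0.0263 in edgeR) that lay between -2.96 and -1.68 when 1 library was dropped. Spag16 had 12 and 16 counts in Ctrl against 6 and 11 in A5-CKO, and was also lower in both. Hydin had 10 and 40 counts in Ctrl against 4 and 32 in A5-CKO, and Cfap54 had 6 and 38 against 11 and 32. For both of these long genes Ctrl 2 and A5-CKO 2 were the high libraries, and the genotypes overlapped. Spag17 went the other way, with 29 and 31 counts in Ctrl and 63 and 68 in A5-CKO, or 1.71 and 1.80 CPM against 2.85 and 2.91 CPM. Its exons overlap Wdr3 (9.7% of its exonic length) and Spag17os (6.1%) on the opposite strand.

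Of the 12 tektins and other structural genes, 6 were lower in both A5-CKO libraries with TMM scaling and none was higher in both. Among all genes tested 23.5% were lower and 20.3% higher. Ccdc153, a coiled-coil gene of ciliated cells, had 96 and 115 counts in Ctrl and 12 and 37 in A5-CKO, or 5.68 and 6.69 CPM against 0.543 and 1.58 CPM. Its log2 fold change was -2.53 (standard error 0.71), with the smallest unadjusted p of the list (0.00927, adjusted p = 0.528 in edgeR), and lay between -3.49 and -1.96 when 1 library was dropped. Tekt1, a filament protein inside the doublets, had 34 and 30 counts in Ctrl and 11 and 7 in A5-CKO, for a log2 ratio of -2.22 (standard error 0.73, unadjusted p = 0.0195 in edgeR). The other tektins lay closer together, though both were lower in both A5-CKO libraries after TMM scaling. With total counts only both overlapped, and Tekt4 overlapped with RLE and upper-quartile scaling too. Tekt2 had 1.06 and 1.16 CPM in Ctrl against 0.905 and 0.769 CPM in A5-CKO, and Tekt4 had 1.95 and 2.27 CPM against 1.13 and 1.92 CPM. The exons of Tekt2 share 20.8% of their length with Gm12945 on the opposite strand. Cfap126, a protein of the basal body and axoneme, had 166 and 170 counts in Ctrl and 109 and 92 in A5-CKO, or 9.82 and 9.89 CPM against 4.93 and 3.93 CPM. Its log2 fold change was -1.15 (standard error 0.47, unadjusted p = 0.0462 in edgeR), and its libraries were close to each other within each genotype.

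Rp1, a microtubule-binding gene known from photoreceptors, had 20 and 12 counts in Ctrl and 4 and 7 in A5-CKO. Tppp3, the most abundant member, had 1833 and 1790 counts in Ctrl and 2635 and 838 in A5-CKO. In normalized counts this was 108 and 104 CPM against 119 and 35.8 CPM, so that A5-CKO 1 was the highest and A5-CKO 2 the lowest library, and the log2 ratio was -0.45 (standard error 0.53). Cfap43, which helps to tether dynein arms, had 2.54 and 3.49 CPM in Ctrl and 3.35 and 2.56 CPM in A5-CKO (log2 ratio -0.03, standard error 0.58). The genes Cfap43, Cfap44, Cfap52, Cfap65 and Ccdc113 overlapped between the genotypes, with single libraries from 0.453 to 3.49 CPM. The exons of Cfap52 share 8.4% of their length with 9130017K11Rik on the opposite strand.

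Zmynd10, which is needed to assemble dynein arms before they enter the cilium, had 43 and 47 counts in Ctrl and 43 and 11 in A5-CKO. It was 2.54 and 2.73 CPM in Ctrl and 1.95 and 0.470 CPM in A5-CKO, with A5-CKO 2 well apart. The exons of Zmynd10 share 10.1% of their length with Gm34106 on the opposite strand. Ak7, an adenylate kinase of cilia, had 1.54 and 1.63 CPM in Ctrl and 0.770 and 0.940 CPM in A5-CKO. Both were lower in both A5-CKO libraries.

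The difference between the genotypes went with the length of the gene. Of the 18 members with under 3 kb of exons, 14 were lower in both A5-CKO libraries and 0 were higher in both, with a median log2 fold change of -0.93. Of the 24 longer members, 8 were lower and 4 were higher, with a median of -0.36 for the 23 tested. All genes tested showed a like trend. Those with under 3 kb had a median of -0.26, with 35.6% lower and 11.8% higher in both A5-CKO libraries. The longer ones had a median of 0.07, with 18.5% lower and 23.2% higher in both. Across the 41 members Spearman's rho between fold change and exonic length was 0.38, and across 15237 genes it was 0.27. These are descriptions across genes, which share the 4 libraries and are not independent. After correcting for GC and transcript length, a step chosen after seeing the data like the 3 kb limit, the median of the 41 members was -0.63, with 33 below 0 and 8 above, and the median of all genes was -0.06. Foxj1 was then at -1.17, Ccdc153 at -2.39, Tekt1 at -1.96 and Spag6l at -2.54, while Ccdc39 was at 1.41 on the log2 scale. Cfap126 (-0.92, unadjusted p = 0.0977 in edgeR) and Dnah7b (1.65, unadjusted p = 0.124 in edgeR) were no longer under 0.05. Rp1 came under 0.05 with the correction (-2.51, unadjusted p = 0.0237 in edgeR, against -1.94 and 0.0557 without it).

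**Figure D3:**
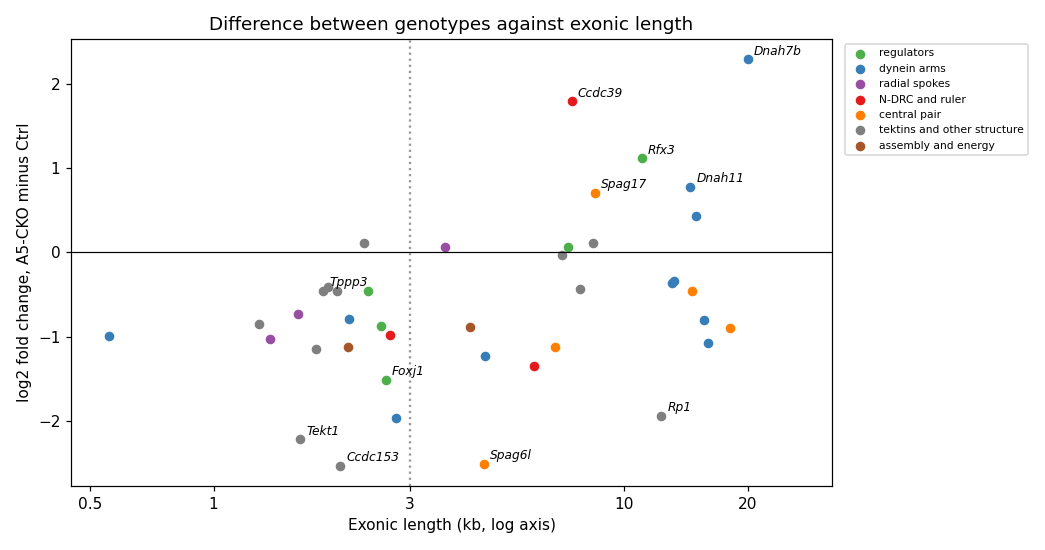
Log2 ratio of A5-CKO to Ctrl (vertical axis) against exonic length in kb (horizontal log axis) for the 41 motile cilia genes tested, coloured by role. The dotted line is at 3 kb. Left of it, 17 of 18 genes are below 0, and every gene above 0.5 lies right of it.

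The libraries of 1 genotype were not alike in these genes. Ctrl 2 was the highest of the 4 libraries for 27 of the 42 genes, and Ctrl 1 for 6. Between the Ctrl libraries, 32 genes were higher in Ctrl 2, and 12 differed by more than 2-fold, not counting Mcidas with its 0 counts in Ctrl 1. Between the A5-CKO libraries, 24 genes were higher in A5-CKO 1 and 18 in A5-CKO 2. Of these, 14 differed by more than 2-fold, not counting Dnah12 with its 0 counts in A5-CKO 2. The summed level of the 42 genes gave a log2 ratio of A5-CKO over Ctrl of -0.43, and this was -0.96 without A5-CKO 1, -0.04 without A5-CKO 2 and -0.11 with total counts only. Without Tppp3 the sums were 144 and 170 CPM in Ctrl and 136 and 99.7 CPM in A5-CKO.

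The other lists were set beside these values. The AT2 markers were lower in both A5-CKO libraries for 9 of 12 genes, with a median log2 fold change of -0.86. The club cell markers were lower in both for 4 of 12, with a median of -0.38, beside 23.5% lower among all genes tested. Another 2 club cell markers were higher in both, beside 20.3% higher among all genes tested. These 2 included the mucin gene Muc5b (log2 fold change 1.13, unadjusted p = 0.0176 and adjusted p = 0.528 in edgeR). The ratio of A5-CKO to Ctrl in the summed level was 0.743 for the 42 motile cilia genes, 0.563 for the AT2 markers and 0.413 for the club cell markers, or 0.631 for the latter without Cbr2. The same ratio was 0.801 for the sum of all genes tested. That value is fixed by the TMM factors and is not a background of single genes. By gene, the median log2 fold change was -0.80 for the motile cilia genes tested and -0.02 for all genes tested. Leukocyte markers summed to 2720 and 700 CPM in Ctrl and to 788 and 3060 CPM in A5-CKO, and mesenchymal markers to 541 and 185 CPM in Ctrl and to 124 and 1200 CPM in A5-CKO. Both sums were thus high in Ctrl 1 and A5-CKO 2, 1 library of each genotype. The leukocyte sum came mostly from the plasma cell genes Igkc (1438 and 254 CPM in Ctrl, 342 and 1622 CPM in A5-CKO) and Jchain. Not every leukocyte marker followed it, and Ptprc had 860 and 387 counts in Ctrl and 1862 and 1937 in A5-CKO. The part of these lists in the values of the motile cilia genes was not tested.

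**Figure D4:**
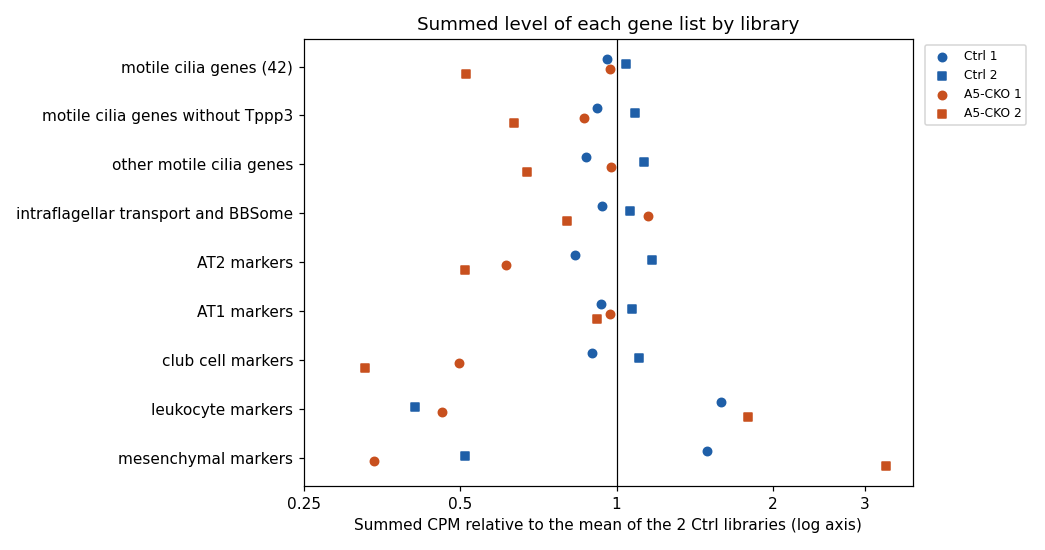
Summed CPM of each gene list in the 4 libraries, relative to the mean of the 2 Ctrl libraries (horizontal log axis). The AT2 and club cell sums are lower in both A5-CKO libraries. A5-CKO 1 lies near Ctrl for the motile cilia genes, and the leukocyte and mesenchymal sums are high in Ctrl 1 and A5-CKO 2.

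Motile cilia genes outside the member list were looked at next. Of 110 such genes 109 had a row and 85 were tested, with a median log2 fold change of -0.32, 56 of them below 0 and 29 above. Of the 109, 46 were lower in both A5-CKO libraries (42.2%) and 15 were higher in both (13.8%). Of the 85 tested, 38 were lower and 14 higher, beside 23.5% and 20.3% of all genes tested. By edgeR 0 passed the adjusted threshold, beside 0.0% of all genes tested. An unadjusted p under 0.05 was found for 13 lower and 2 higher genes, beside 4.71% and 4.48% of all genes tested. The smallest p were those of Cfap161, a doublet protein, with 33 and 24 counts in Ctrl and 4 and 2 in A5-CKO (log2 fold change -3.60, standard error 0.86), and of Tcte1, of the nexin-dynein regulatory complex, with 25 and 25 counts in Ctrl and 2 and 4 in A5-CKO (log2 fold change -3.42, standard error 0.84). The 2 higher genes were Stil, which acts in centriole duplication (4 and 6 counts in Ctrl, 20 and 72 in A5-CKO), and Tekt5 (20 and 14 in Ctrl, 48 and 112 in A5-CKO), and A5-CKO 2 was the high library for both.

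By role, the doublet and ciliated airway genes had the lowest median, -0.89 over 26 genes tested. Of 37 such genes 20 were lower in both A5-CKO libraries (15 of those tested, beside 23.5% of all genes tested). The one with the highest CPM was Sec14l3, with 249 and 487 CPM in Ctrl and 405 and 188 CPM in A5-CKO. Other radial spoke, nexin link and central pair genes had a median of -0.56 over 25 genes, other arm subunits and docking factors -0.39 over 13, and other assembly factors -0.28 over 10. Among the assembly factors Pih1d1, a cofactor of chaperones found in many cells, had 66.0 and 48.9 CPM in Ctrl and 32.1 and 35.3 CPM in A5-CKO.

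Intraflagellar transport and the BBSome, which primary cilia share with motile cilia, summed to 664 and 753 CPM in Ctrl and 813 and 569 CPM in A5-CKO. Their median log2 fold change was 0.21 over 37 genes, with 23 above 0 and 14 below, and no gene had an unadjusted p under 0.05 in edgeR. Of the 38 genes, 24 overlapped between the genotypes, 8 lay higher in A5-CKO (21.1%) and 6 lay lower (15.8%). Among all genes tested 20.3% lay higher and 23.5% lower. Ift20, a small subunit of the transport particle, had 91.7 and 94.1 CPM in Ctrl against 79.6 and 55.0 CPM in A5-CKO, and Kif3b, a motor subunit, had 34.1 and 37.9 CPM in Ctrl and 43.9 and 51.9 CPM in A5-CKO. The difference between this list and the motile cilia genes was not tested.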

How the data were processed

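RNA-seq of GFP-sorted AT2 cells was taken from 2 Ctrl and 2 A5-CKO libraries, grouped by the genotype in the labels. Per the labels and the study's methods, the authors trimmed the reads with Trim Galore 0.6.10, aligned them to mm10.p6 with HISAT2 2.2.1, removed duplicates and deposited raw counts per gene from featureCounts 2.0.3. The methods describe gene counting under MeRIP-seq, and peak calling and the removal of ribosomal reads under RNA-seq, so whether ribosomal reads were removed from these libraries is uncertain. The strand setting is not given in the sources used here.

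From the counts, edgeR 4.0.16 (R 4.3.3) was run with TMM factors, filterByExpr and the quasi-likelihood test (glmQLFit, glmQLFTest), with Benjamini-Hochberg adjustment over 16661 of 40092 genes. CPM values were taken over library sizes scaled by TMM. A standard error is the size of a log2 ratio over the root of its F statistic. A count of 3, taken as the detection floor, equals 0.128 to 0.177 CPM and covers counting error only. The libraries within a genotype were distinct, with a chi-square over its degrees of freedom of 110 (Ctrl) and 96.4 (A5-CKO), and each was 1 replicate. The alternatives comprised other scaling (RLE, upper quartile, total counts only), other filters (none, at least 10 counts in every library), DESeq2 1.42.0 with edgeR's gene set or its own filtering, limma voom (3.58.1), the replicate number as a block, and each library left out in turn. A correction for GC content and transcript length, with splines of 4 degrees of freedom for 15237 genes, and a crossed pairing were chosen after seeing the data. The fit was tested on simulated counts.

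Exonic lengths and overlaps came from GENCODE M21, which is not the annotation used for counting, and coordinates and promoters from RefSeq (GRCm38.p6). The members, the other gene lists and the tests were chosen with earlier results of these data known. Full values are given for the 5 regulators, for every member with an unadjusted p under 0.05 and for the 12 members with the highest mean CPM. From each other list at most the 4 genes with the highest CPM, and the 2 motile cilia genes outside the member list with the smallest p in each direction, are named. Any further gene was picked with its values in view.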

Additional observations from a re-analysis of the deposited data

How the results depend on the processing

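No member had an adjusted p under 0.05 with other scaling, other filters, DESeq2, limma voom, the replicate block or any library left out. The number with an unadjusted p under 0.05 was 7, and it was 4 with at least 10 counts in every library (27 members tested), 4 with the replicate block, and from 3 (without Ctrl 1) to 6 with each library left out. Among all genes tested, an unadjusted p under 0.05 was found for 1530 of 16661 in the main fit. It was found for 1302 of 14543 with at least 10 counts in every library and for 754 of 16661 with the replicate block. With a library left out, 1 genotype holds a single library, and nothing is drawn from the counts of those fits. No pairing by number was found. Deviations from the group mean correlated at -0.35 between libraries of equal number, and the labels name no shared litter or batch. A crossed pairing (Ctrl 1 with A5-CKO 2, and Ctrl 2 with A5-CKO 1) was chosen after seeing the data. In this edgeR fit 1 member, Ccdc153, had an adjusted p under 0.05 (0.0289), beside 230 of all 16661 genes (1.38%). An unadjusted p under 0.05 was found for 10 members, beside 15.5% of all genes. No label names this pairing, and it was picked from the same spread that it removes, so its p-values carry no support. The summed level (log2 A5-CKO over Ctrl -0.43) was -0.957 when A5-CKO 1 was left out, -0.0419 when A5-CKO 2 was left out, and -0.11 with total counts only. Mcidas changed direction in limma voom (1.26), with the replicate block (0.50) and with the crossed pairing (0.39), and from -1.37 to 6.35 with each library left out, where the high value rests on Ctrl 1 with 0 counts. Rfx2 lay between -0.24 and 0.56 over the fits lacking 1 library. For none of these was the cause tested.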

Other observations

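Genes for the multiplication of centrioles and for the start of multiciliation, other than the members, had a median log2 fold change of 0.26 over 11 genes tested, with 6 above 0 and 5 below. Ccp110, a cap protein of centrioles, had 18.3 and 31.9 CPM in Ctrl and 81.9 and 24.1 CPM in A5-CKO, so that A5-CKO 1 alone was high. E2f4, which works with multicilin and also in every cycling cell, had 44.8 and 61.2 CPM in Ctrl and 35.2 and 43.4 CPM in A5-CKO.

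AT1 markers summed to 3420 and 3920 CPM in Ctrl and to 3560 and 3370 CPM in A5-CKO, with a median log2 fold change of 0.58 over 9 genes. Markers of basal, tuft and neuroendocrine cells of the airway summed to 33.1 and 29.3 CPM in Ctrl and to 38.6 and 36.8 CPM in A5-CKO, mostly from Dclk1, and endothelial markers to 155 and 235 CPM in Ctrl and to 104 and 235 CPM in A5-CKO. None of these lists had a gene with an unadjusted p under 0.05 in edgeR.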
